A study of Mus musculus with 8 samples.

Results

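The Hox genes of the 4 mouse clusters were followed in a SOX9 CUT&Tag experiment on the spinal cord. The members were listed by name, and all 38 were found among the 21829 protein-coding genes of the annotation, 10 in HoxA, 10 in HoxB, 9 in HoxC and 9 in HoxD. Each was described by the coverage within 1 kb to either side of its transcription start site (the TSS window) and over its gene body, and each cluster was read whole in 1-kb tiles, 488 in all.

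Hox genes encode homeodomain transcription factors that give cells their position along the head-to-tail axis. Within a cluster the genes lie in the order of their paralog number, low numbers being used from the hindbrain downwards and high numbers towards the tail. In the spinal cord they set the identity of motor columns, and Polycomb and Trithorax proteins hold the clusters in silent and active stretches.

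CUT&Tag directs a transposase to a chromatin protein through antibodies, so that DNA close to the protein is cut out and sequenced. Here 150000 nuclei per sample, sorted on a DNA stain, came from frozen 5-mm segments of cord of adult wild-type C57BL/6 mice. The segments lay around the centre of a mid-thoracic contusion at 1 day post-injury (1 d.p.i.), or at the same level in uninjured mice. Nuclei from a male sample (M) and a female sample (F) of each condition were incubated with an antibody to SOX9, a transcription factor of astrocytes and other glia, and 20% were set aside as controls that received the secondary antibody alone. This gave 8 libraries in 4 groups of 2. The study states that 2 to 4 animals, males and females in equal number, made up each condition of its sequencing experiments. How many stand behind each of these libraries was not given, so p-values measure the spread between these samples. Because the nuclei were not separated by type, fewer cells of a type and less signal per cell cannot be told apart.

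The deposited values count the fragments that cover each stretch of DNA, not scaled for depth, and all coverage below is given as a multiple of the mean coverage of its library. Depth differed among the SOX9 libraries. In fragments it was 1891276 in uninjured M, 7216730 in uninjured F, 2529356 in 1 d.p.i. M and 2385009 in 1 d.p.i. F. At the library's mean density, 1.39 and 5.30 fragments would thus start in a TSS window in uninjured M and F. At 1 d.p.i. these numbers were 1.86 and 1.75. The median Hox window held 6, 33.5, 9 and 6.5 fragments in the same order. These counts also take in fragments that start outside the window. Values of single genes in the 3 shallower libraries thus rest on few fragments.

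The controls were far shallower, at 22752, 46846, 52950 and 10906 fragments in the same order. They did not stand apart from the SOX9 libraries in position. Of the fragments that stood alone in a control within the Hox clusters, 68 of 77 (88.3%) had both ends in common with fragments of a SOX9 library. Genome-wide the share of lone control fragments was 93.5%, 82.3%, 86.0% and 91.4% in the same order, so the sharing was not particular to the clusters. The share of coverage on chromosome Y was 1.11% and 0.630% in the M SOX9 libraries and 0.0983% and 0.142% in the F ones, but 0.202% and 0.267% in the M controls and 0.218% and 0.129% in the F controls, which did not separate the sexes. The part of the shared fragments in the controls' values was not tested, and no value below is a ratio to a control.

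The first question was how SOX9 CUT&Tag coverage lay along the clusters. All 4 clusters were covered above the library mean in every SOX9 library, while their flanks, 100 kb to each side, were near it when pooled. Together the clusters reached 2.703 (uninjured M), 3.89 (uninjured F), 3.61 (1 d.p.i. M) and 3.01 (1 d.p.i. F) times the library mean, and the flanks 0.985, 1.04, 0.932 and 0.891. The cluster values rested on 943, 4900, 1592 and 1274 fragments. Taken as fragments over the library's own density, they had exact 95% Poisson intervals of 2.61 to 2.97, 3.69 to 3.90, 3.34 to 3.69 and 2.82 to 3.15, which cover counting error alone. The interval of the uninjured F library lay above those of uninjured M and 1 d.p.i. F, so the libraries differed by more than counting error, also within a condition.

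The controls were also above their library means, on few fragments. Their clusters held 16, 19, 33 and 9 fragments in the order above, or 3.93, 2.27, 3.48 and 4.61 times the density of their libraries. The Poisson intervals were 2.24 to 6.38, 1.36 to 3.54, 2.40 to 4.89 and 2.108 to 8.75. In uninjured F the SOX9 multiple and its interval lay above those of the control. In the other 3 samples the intervals of SOX9 library and control overlapped. Most lone control fragments in the clusters were shared with SOX9 libraries, as given above. The intervals therefore cannot show in any sample whether SOX9 library and control differ.

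HoxA, on chromosome 6 (chr6:52162001-52261000), was the highest cluster on average. It stood at 3.34, 4.85, 4.95 and 3.69 times the mean in the uninjured M and F and the 1 d.p.i. M and F libraries. HoxB (chr11:96194001-96369000) stood at 2.54, 3.86, 3.28 and 2.904, HoxC (chr15:102921001-103037000) at 2.42, 3.33, 3.10 and 2.49, and HoxD (chr2:74668001-74766000) at 2.68, 3.62, 3.45 and 3.13. HoxA was the highest of the 4 in each SOX9 library and HoxC the lowest. The flanks of HoxC, at 1.12 to 1.74 times the mean, were the highest flanks, and those of HoxD, at 0.653 to 0.8003, the lowest.

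**Figure D1:**
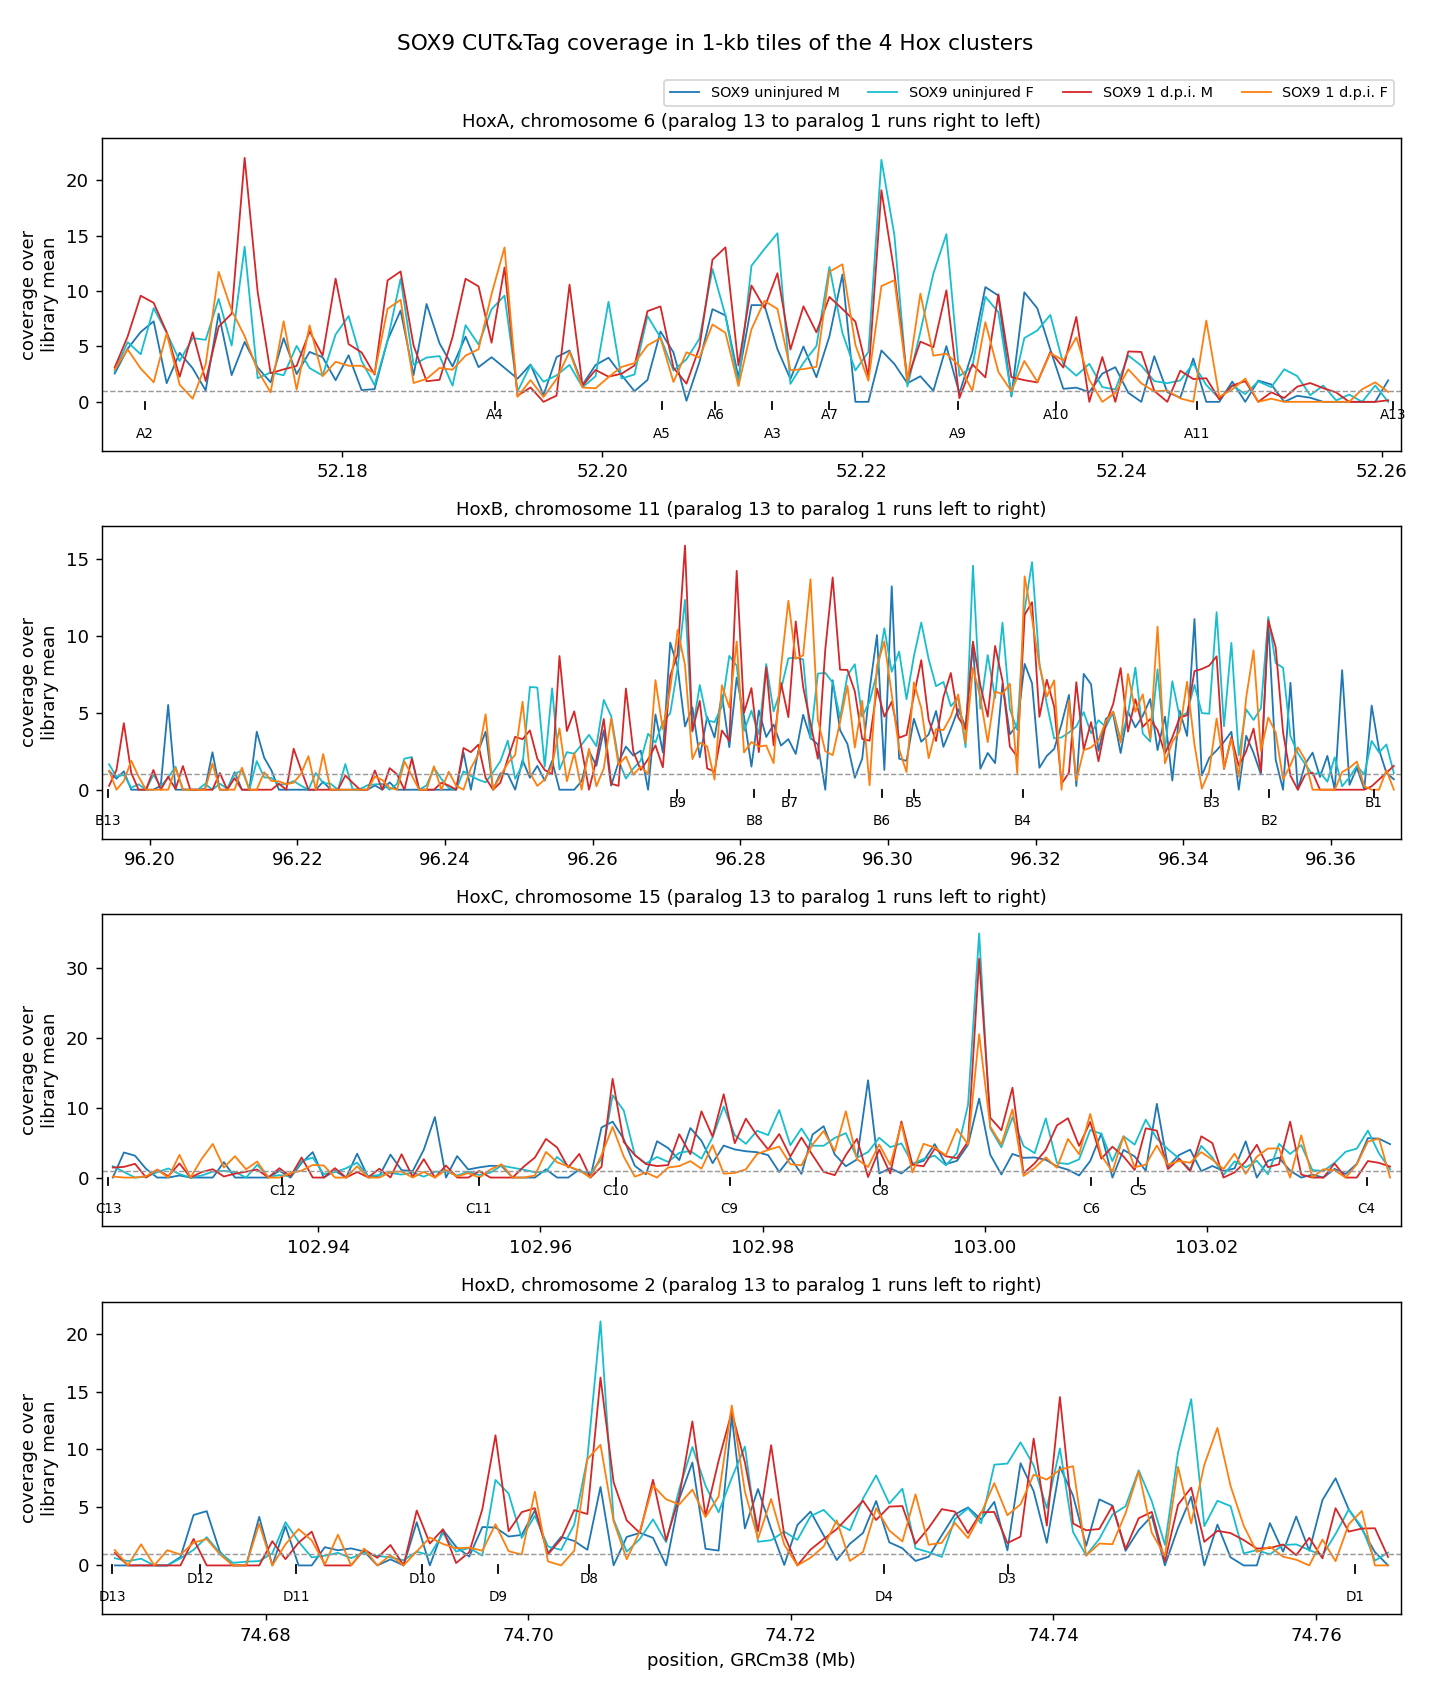
Coverage over the library mean in 1-kb tiles (y axis) along the 4 Hox clusters (x axis, position in Mb on GRCm38) in the 4 SOX9 libraries, with gene starts marked under each panel and the library mean as a dashed line. Tiles at the paralog 13 end are lower than those towards paralog 1 in most places, and the highest tile, in HoxC, reaches 34.9.

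Coverage was not even along the clusters. Each cluster was divided midway between the starts of its lowest-numbered gene of paralog groups 10-13 and its highest-numbered gene of groups 1-9, a division chosen after the tiles were seen. Over the 4 clusters the parts that hold paralog groups 10-13 lay near the library mean, at 1.28 (uninjured M), 1.27 (uninjured F), 1.19 (1 d.p.i. M) and 1.06 (1 d.p.i. F). The parts that hold groups 1-9 reached 3.31, 5.01, 4.65 and 3.84. As group values these were 1.27 ± 0.00986 (SD, n = 2) and 4.16 ± 1.201 (SD, n = 2) in uninjured cords, and 1.13 ± 0.0919 (SD, n = 2) and 4.25 ± 0.570 (SD, n = 2) at 1 d.p.i. In each of the 4 SOX9 libraries the parts were further apart than the replicates of either condition. The controls had the same order, on few fragments. Their groups 10-13 parts stood at 0, 0.927, 1.88 and 4.04 on 0, 3, 5 and 2 fragments, and their groups 1-9 parts at 6.11, 2.98, 4.67 and 5.43 on 16, 16, 28 and 7. Whether the step is particular to the SOX9 libraries cannot be told from these counts.

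The step was present in every cluster and library, with different sizes. In HoxB, where Hoxb13 lies far from the other genes, the groups 1-9 part was 5.78, 9.29, 7.56 and 7.23 times as high as the Hoxb13 part in the uninjured M and F and 1 d.p.i. M and F libraries. The ratios were 2.38, 2.75, 3.68 and 3.10 in HoxA, 1.87, 3.35, 2.83 and 3.07 in HoxC, and 2.62, 4.55, 4.79 and 3.09 in HoxD. Among 1-kb tiles, 216 of the 341 in the groups 1-9 parts had a mean of at least 3 over the SOX9 libraries (63.3%), against 8 of 147 in the groups 10-13 parts (5.44%) and 6.32% of all 2725532 tiles of the genome.

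Tiles outside the principal transcripts showed the same step. In tiles that held no principal transcript of a member and lay over 1 kb from its start, coverage was 2.79, 4.24, 4.02 and 3.46 times the mean in the groups 1-9 parts (173 tiles) and 0.857, 0.890, 0.955 and 0.870 in the groups 10-13 parts (88 tiles). Many of these tiles lie in other transcripts, among them longer ones of the members. Tiles clear of every annotated transcript, and over 1 kb from every annotated start, were found on both sides of the division in HoxB alone. There the 36 tiles of the groups 1-9 part had 2.34, 3.15, 2.67 and 2.73 times the mean, and the 30 tiles of the Hoxb13 part 0.569, 0.5004, 0.375 and 0.489. In HoxB the higher level was thus not restricted to transcripts and their starts, and in the other clusters this could not be read. The longest runs of tiles with coverage in all 4 SOX9 libraries were 40 tiles in HoxC, 33 in HoxA, 31 in HoxB and 27 in HoxD. The HoxC run (chr15:102971001-103011000) began at the end of Hoxc10 and went past the start of Hoxc6.

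Gene by gene, the TSS windows followed this layout. Over all 38 genes the median window stood at 3.46 (uninjured M), 6.07 (uninjured F), 4.60 (1 d.p.i. M) and 3.396 (1 d.p.i. F), close to the medians of all protein-coding genes, 2.78, 4.64, 3.60 and 3.26. The medians of the 6499 genes with CpG-rich windows were higher, 6.24, 12.5, 8.99 and 7.62. CpG-rich means here a GC content of at least 50% and at least 0.6 times the CpG dinucleotides that base composition predicts. Gene bodies stood further apart, since the median Hox gene body had 3.04, 5.28, 4.99 and 2.88 times the library mean against 1.42, 1.55, 1.49 and 1.48 over all protein-coding genes. Hox genes are short, so their bodies share much sequence with their TSS windows.

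By paralog group, the 12 genes of groups 10-13 had the lowest median, though Hoxc10 and Hoxa10 among them were not low. Their median TSS window was 1.36 (uninjured M), 1.21 (uninjured F), 1.12 (1 d.p.i. M) and 1.28 (1 d.p.i. F). The 19 genes of groups 4-9 had medians of 4.09, 7.59, 6.51 and 5.59, and the 7 genes of groups 1-3 had 3.99, 8.18, 8.12 and 3.26. In each library the median of groups 4-9 was 3.002, 6.27, 5.80 and 4.39 times that of groups 10-13. Groups 1-3 and 4-9 had no fixed order, groups 1-3 being higher in uninjured F and 1 d.p.i. M and lower in the other libraries.

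**Figure D2:**
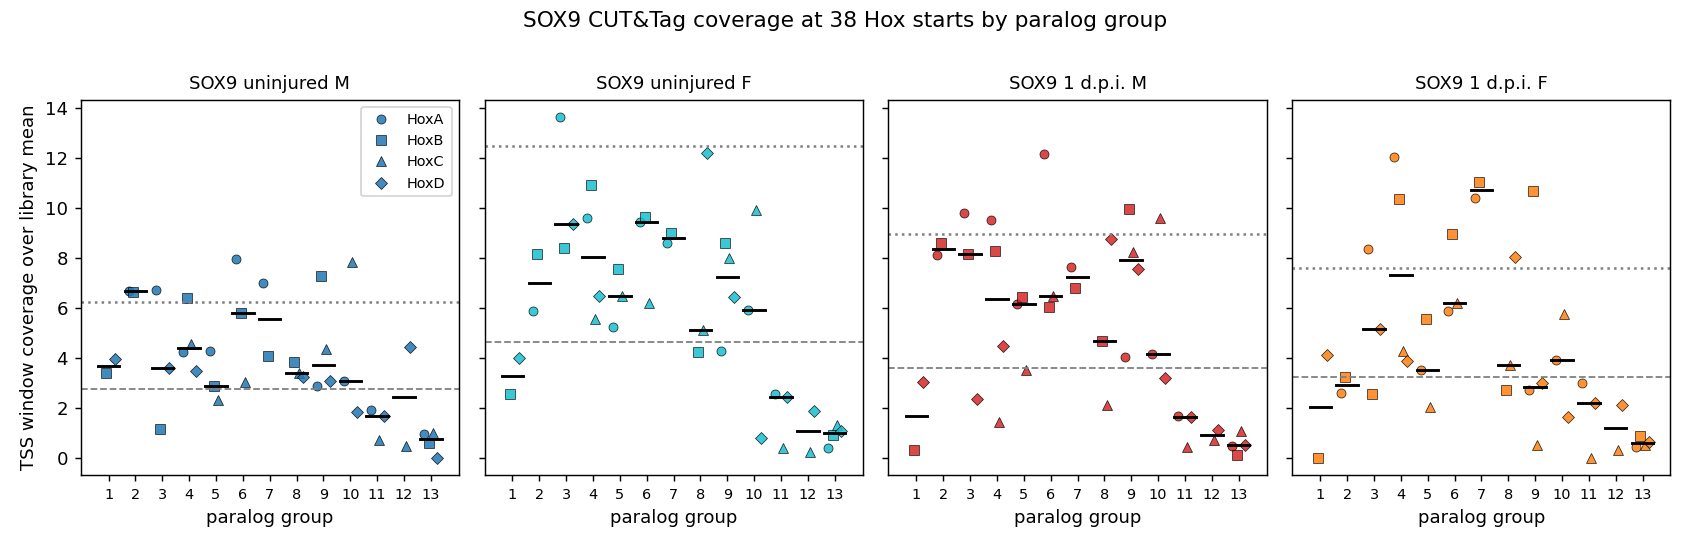
TSS window coverage over the library mean (y axis) of the 38 Hox genes by paralog group (x axis), 1 panel for each SOX9 library, with clusters as symbols and the median of each paralog group as a black bar. Dashed and dotted lines give the medians of all protein-coding genes and of those with CpG-rich windows. All genes of groups 11, 12 and 13 lie below the dashed line, apart from Hoxd12 in the uninjured M panel (4.45).

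Coverage was lower towards high paralog numbers. Across the 38 genes, Spearman's rho of coverage against paralog number was -0.51, -0.54, -0.44 and -0.43 in the 4 SOX9 libraries, a description over genes that share libraries and neighbours. In HoxB, where Hoxb1 was low as well as Hoxb13, rho lay between -0.18 and 0.30. In HoxD it lay between -0.83 and -0.53.

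CpG content did not sort the genes in the same way. Of the 12 genes of groups 10-13, 9 had CpG-rich windows, and all 9 lay below the lower quartile of CpG-rich genes (5.27, as the mean of the SOX9 libraries). Of the 10 genes of groups 4-9 with CpG-rich windows, 2 lay below it and 3 above the CpG-rich median of 8.82. The 9 CpG-rich genes of groups 10-13 had medians of 1.03, 1.09, 1.104 and 0.666 in the uninjured M and F and 1 d.p.i. M and F libraries, against 4.27, 8.83, 7.64 and 9.68 for the CpG-rich genes of groups 4-9.

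Paralog groups 9 and 10 lie at the division of the clusters. The genes of group 9 mark the trunk in the embryo, and those of group 10 are known for the lumbar region. Hoxb9 (chr11:96271457-96276595, + strand) was the highest gene of HoxB by the mean of the 4 SOX9 libraries (9.15, next to 9.01 for Hoxb4) but not in each of them, at 7.32, 8.63, 9.96 and 10.7 in the uninjured M and F and 1 d.p.i. M and F libraries. Hoxc9 had 4.39, 8.02, 8.26 and 0.545, Hoxd9 3.10, 6.46, 7.60 and 3.02, and Hoxa9 2.9003, 4.28, 4.04 and 2.73. Hoxc9, which keeps the thoracic motor columns distinct, was thus low in 1 library of 4, on 3 fragments.

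The 3 genes of group 10 differed from each other. Hoxc10 (chr15:102966796-102971893, + strand) had the highest mean of HoxC and was below Hoxc6 (6.21) in 1 d.p.i. F, at 7.87, 9.95, 9.60 and 5.78. Hoxa10 was intermediate, at 3.11, 5.93, 4.18 and 3.93. Hoxd10 had 1.86, 0.819, 3.23 and 1.64, below Hoxc10 and Hoxa10 in each SOX9 library. In HoxC the gene values thus stepped between Hoxc11 and Hoxc10. In HoxA, Hoxa10 was above Hoxa9 in each SOX9 library, and values were lower from there over Hoxa11 to Hoxa13. In HoxD, Hoxd9 was above Hoxd10 in each SOX9 library, but in uninjured M Hoxd12 (4.45) was above both.

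The gene with the lowest mean of each cluster was a gene of group 11 or 13, though not the lowest in every library. Hoxc11 (chr15:102954427-102957708, + strand), the neighbour of Hoxc10, had 0.754, 0.409, 0.469 and 0, on 2, 4, 1 and 0 fragments, where Hoxc10 had 11, 50, 19 and 12. Hoxa13, which patterns limb ends and the urogenital tract, had 0.971, 0.421, 0.499 and 0.446. Hoxb13, a gene of the tail end and prostate, had 0.610, 0.924, 0.127 and 0.906, and Hoxd13, a gene of the digits, had 0, 1.09, 0.538 and 0.666. None of the 4 was above 1.09 times the mean in any SOX9 library.

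The genes with the highest means in the other clusters were Hoxa3 and Hoxd8, and other genes were higher in single libraries. Hoxa3, needed for pharyngeal arch derivatives, had 6.73, 13.7, 9.81 and 8.37 at the start of its principal transcript, which lies between Hoxa6 and Hoxa7 (chr6:52169062-52213115, - strand) and reads across Hoxa4, Hoxa5 and Hoxa6. Hoxd8 (chr2:74704615-74706812, + strand) had 3.24, 12.2, 8.76 and 8.07. As mean ± SD these were 10.2 ± 4.90 (SD, n = 2) without injury and 9.09 ± 1.01 (SD, n = 2) at 1 d.p.i. for Hoxa3, and 7.74 ± 6.36 and 8.42 ± 0.486 for Hoxd8. The uninjured libraries differed more from each other than the conditions did.

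Promoter sequences of 22 of the 38 genes were matched in a table from RefSeq (GRCm38.p6). Those of the genes with the highest and lowest means in HoxA and HoxD, which the table holds, are shown. In these 2 pairs, picked after the values were seen, the promoter with fewer CpGs belonged to the higher gene. GC content in these promoters had the same order, at 64.8% in Hoxa3 and 80% in Hoxa13, and 44.4% in Hoxd8 and 74.4% in Hoxd13. Over the wider TSS windows the order of GC content held in HoxA (53.0% in Hoxa3, 67.3% in Hoxa13) and not in HoxD (63.9% in Hoxd8, 61.9% in Hoxd13). Each is the 250 bases before the RefSeq start, read 5′ to 3′ on the gene's strand, with CpG dinucleotides in capitals.
Hoxa3, chr6:52213068-52213317, - strand: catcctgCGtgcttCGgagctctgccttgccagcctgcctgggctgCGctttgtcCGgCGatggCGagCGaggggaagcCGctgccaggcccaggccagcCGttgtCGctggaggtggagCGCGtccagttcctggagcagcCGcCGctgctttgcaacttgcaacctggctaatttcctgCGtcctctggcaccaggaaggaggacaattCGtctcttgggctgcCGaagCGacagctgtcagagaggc
Hoxa13, chr6:52260881-52261130, - strand: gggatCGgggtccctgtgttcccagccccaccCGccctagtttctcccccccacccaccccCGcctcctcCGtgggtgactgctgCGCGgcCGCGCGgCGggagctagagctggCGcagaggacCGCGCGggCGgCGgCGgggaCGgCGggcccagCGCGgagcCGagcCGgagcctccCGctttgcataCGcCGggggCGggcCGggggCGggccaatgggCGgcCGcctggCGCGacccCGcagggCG
Hoxd8, chr2:74704365-74704614, + strand: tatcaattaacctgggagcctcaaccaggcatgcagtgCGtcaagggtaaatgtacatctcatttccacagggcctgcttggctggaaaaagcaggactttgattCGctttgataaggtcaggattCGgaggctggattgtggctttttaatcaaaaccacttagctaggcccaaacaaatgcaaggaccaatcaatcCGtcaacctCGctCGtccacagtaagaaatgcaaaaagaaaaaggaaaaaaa
Hoxd13, chr2:74667975-74668224, + strand: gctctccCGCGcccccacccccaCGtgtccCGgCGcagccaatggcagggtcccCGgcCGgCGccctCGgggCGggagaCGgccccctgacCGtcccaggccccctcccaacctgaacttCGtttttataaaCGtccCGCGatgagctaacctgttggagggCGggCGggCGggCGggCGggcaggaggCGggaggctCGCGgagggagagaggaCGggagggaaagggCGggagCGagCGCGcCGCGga
The Hoxa3 and Hoxa13 promoters hold 18 and 35 CpGs, and those of Hoxd8 and Hoxd13 hold 6 and 31, where the median over 20143 promoter entries of protein-coding genes was 10 and that over 24 Hox entries 12.5. The mean TSS window coverage was 9.64 and 0.584 for Hoxa3 and Hoxa13, and 8.08 and 0.573 for Hoxd8 and Hoxd13. The RefSeq starts lie 48, 0, 0 and 85 bp from the starts used for the windows. The SOX core letters ACAATG or ACAAAG, on either strand, were found 1 time in the Hoxa3 promoter and in none of the other 3, and the AP-1 letters TGANTCA were found in none of the 4. Among the promoter entries 22.2% held the SOX letters and 6.13% the AP-1 letters.

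In the wider TSS windows, 30 of the 38 Hox genes (78.9%) held the SOX letters, against 88.1% of all protein-coding genes. The AP-1 letters were in 6 of the 38 (15.8%), against 37.5% of all. By paralog group the SOX letters were in 5 of 7, 16 of 19 and 9 of 12 windows of groups 1-3, 4-9 and 10-13, and the AP-1 letters in 3 of 7, 1 of 19 and 2 of 12. A match is a description of letters, on few genes in each class.

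The highest tile of all 4 clusters lay in HoxC (chr15:102999001-103000000), between Hoxc8 and Hoxc6. It held no exon and no annotated start, and lay inside introns of longer Hoxc5 and Hoxc6 transcripts, its peak of coverage 8705 bp from the nearest member start, that of Hoxc8. Its coverage was 11.3 (uninjured M), 34.9 (uninjured F), 31.3 (1 d.p.i. M) and 20.5 (1 d.p.i. F), on 10, 103, 28 and 21 fragments, and the controls held 0, 0, 1 and 0 fragments. The tile ranked above 99.9% of all genome tiles by its mean over the SOX9 libraries.

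The highest tiles of the other clusters all held an annotated start. In HoxA it was the tile chr6:52221001-52222000, with an exon and start of a longer Hoxa7 transcript, at 4.63, 21.8, 19.1 and 10.4. In HoxD it was chr2:74705001-74706000, in Hoxd8, at 6.77, 21.1, 16.2 and 10.4. In HoxB it was chr11:96318001-96319000, in Hoxb4, at 8.20, 11.7, 11.4 and 13.9. The uninjured M library was the lowest at each of these 4 tiles and uninjured F the highest at those of HoxA, HoxC and HoxD, and the conditions overlapped at all 4. The 4 tiles held the SOX letters 1 time, in Hoxb4, and the AP-1 letters 0 times. Of 52954 genome tiles taken at a fixed step, 81.1% held the SOX letters and 26.3% the AP-1 letters.

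The second question was whether the Hox genes changed at 1 d.p.i. No member passed the test in either direction. Of the 38 TSS windows, 0 rose and 0 fell by limma at an adjusted p under 0.05, as for all 21259 windows tested (0% called). At an unadjusted p under 0.05, 1 member was lower and 0 were higher, against 1.28% and 1.14% of all windows. The median log2 change of the members was -0.08, and that of all windows -0.06. The standard errors of the members lay between 0.64 and 0.84 on the log2 scale, and even the largest change, -2.42 in Hoxb1, was not called, so changes of that size could be missed. Over gene bodies 0 of 38 passed limma's threshold, as for all 21525 tested (0% called), with 4 members at an unadjusted p under 0.05 (1 higher and 3 lower), against 3.9% of all gene bodies. These were Hoxa10 (log2 change -1.01, unadjusted limma p 0.00727), Hoxb1, Hoxa11 (-0.91, p 0.0301) and Hoxd11. The Hoxa10 body had 6.28 and 5.34 in uninjured M and F, and 2.53 and 2.71 at 1 d.p.i., and Hoxd11 was the higher one (1.80, p 0.0305). Of the 488 cluster tiles, 404 were high enough to be tested, and 0 passed by limma, against 21 of 1024881 tiles in the genome (0.00205% called). Unadjusted, 9 cluster tiles were higher and 12 lower, against 3.23% of all tiles tested.

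Counted without a test, 1 member had both 1 d.p.i. libraries above both uninjured ones, against 8.55% of all windows, and 2 had both below, against 14.2% of all windows. The other 35 overlapped. The gene above was Hoxb9, at 7.97 ± 0.930 (SD, n = 2) in uninjured cords and 10.3 ± 0.515 (SD, n = 2) at 1 d.p.i., with a log2 change of 0.36 ± 0.64 (SE). The genes below were Hoxb1 and Hoxc4. These shares are not above the background, and nothing particular to the Hox genes was read from them.

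Hoxb1 had the smallest unadjusted p. It is the first gene of its cluster, known for hindbrain identity. It had 3.398 and 2.56 in the uninjured M and F libraries and 0.329 and 0 at 1 d.p.i., on 4, 15, 1 and 0 fragments. The exact Poisson intervals of these counts were 1.09 to 10.2, 8.40 to 24.7, 0.0253 to 5.57 and 0 to 3.69 fragments. Both libraries at 1 d.p.i. were thus below both uninjured ones, on counts whose intervals overlapped in M and whose depths differed in F. By limma the log2 change of its TSS window was -2.42 ± 0.82 (SE), with an adjusted p of 1.00 and an unadjusted p of 0.00296. That of its gene body was -1.098 ± 0.32 (SE) with an unadjusted limma p of 0.0179.

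The next members by limma's p were Hoxc9 and Hoxc4 among those lower at 1 d.p.i., and Hoxa4, Hoxd10 and Hoxb7 among those higher. Their unadjusted limma p-values lay between 0.138 and 0.464. The log2 change of Hoxc9 was -1.09 ± 0.74 (SE), and it rested on the 1 d.p.i. F library. Without that library the change was 0.44. Hoxc4 had 4.59 and 5.56 in uninjured M and F, and 1.45 and 4.30 at 1 d.p.i., with a log2 change of -0.86 ± 0.75 (SE), which was -0.21 without 1 d.p.i. M. Hoxa4 had 4.24 and 9.63 in uninjured M and F, and 9.54 and 12.1 at 1 d.p.i. (log2 change 0.70 ± 0.64, SE, and 0.15 without uninjured M). Hoxb7 had 4.09 and 9.03 against 6.82 and 11.1 (0.48 ± 0.65, SE), and Hoxd10, given above, 0.68 ± 0.84 (SE). Without uninjured M the change of Hoxb7 was -0.0511, and without uninjured F that of Hoxd10 was 0.26.

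By group, the levels in the 2 conditions overlapped. The median TSS window of groups 1-3 was 6.08 ± 2.96 (SD, n = 2) in uninjured cords and 5.69 ± 3.44 (SD, n = 2) at 1 d.p.i., that of groups 4-9 was 5.84 ± 2.47 and 6.05 ± 0.649, and that of groups 10-13 was 1.29 ± 0.108 and 1.199 ± 0.107.

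The M and F libraries moved in opposite directions. From uninjured to 1 d.p.i., 27 of 38 Hox windows were higher in M and 10 in F. Their changes had a median of 0.34 (M) and -0.48 (F) on the log2 scale. In groups 10-13 the medians were 0.0228 and -0.0730, with 6 and 5 of 12 windows higher. They were 0.48 and -0.41 in groups 4-9 (17 and 4 of 19 higher), and 0.26 and -1.03 in groups 1-3 (4 and 1 of 7). The TSS windows of all protein-coding genes moved likewise, with medians of 0.30 in M and -0.44 in F, and 13456 and 5495 of 21829 higher. Over gene bodies the Hox medians were 0.53 (M) and -0.32 (F), with 28 and 7 of 38 higher. The medians over all gene bodies were smaller, 0.0332 and -0.0669, with 11644 and 8972 of 21829 higher. Whether Hox bodies differ in this from all gene bodies was not tested. Over all protein-coding genes the uninjured F library, the deepest, had the highest median and uninjured M, the shallowest, the lowest. The part of depth in this difference was not tested.

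**Figure D3:**
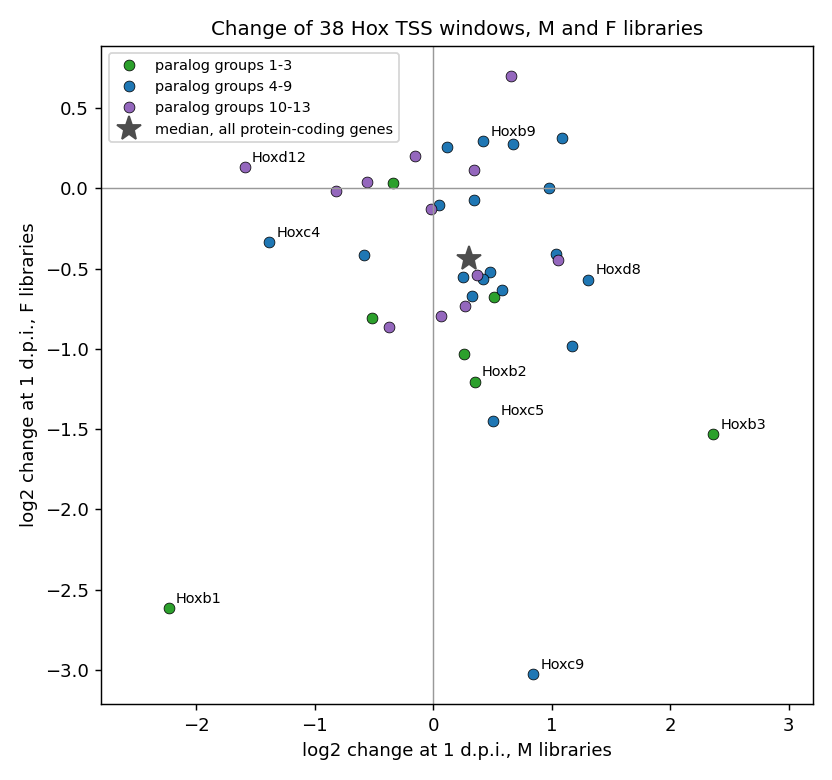
Log2 change of each Hox TSS window from uninjured to 1 d.p.i. between the M libraries (x axis) and between the F libraries (y axis), coloured by paralog groups, with the median of all protein-coding genes as a star. Most genes lie at higher values in M and lower in F, as does the star (0.30 and -0.44), and Hoxb1 is lower in both.

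Genes that work with or on the Hox clusters were read in the same way, and in each list 0 members passed limma's threshold in either direction. The TALE cofactors, which bind DNA together with HOX proteins, had a median TSS window of 5.12, 11.95, 9.47 and 6.54 over 9 genes in the uninjured M and F and 1 d.p.i. M and F libraries. Pbx4 was the highest of them on average (17.9) and Pknox2 the lowest (1.41). The 9 upstream regulators, retinoic acid receptors, Cdx factors and others, had 3.77, 6.86, 3.94 and 3.10. Rara, a retinoic acid receptor, was the highest (9.66), and Cdx4, which opens posterior Hox genes in the embryo, the lowest (0.375).

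The lists of chromatin regulators had higher medians than the Hox genes, with single genes below them. The 13 Polycomb genes had medians of 6.26, 14.6, 10.3 and 7.23, from Bmi1 (1.45) to Jarid2 (23.6). The 7 Trithorax genes and H3K27 demethylases had 11.96, 22.6, 15.5 and 14.8, from Ash2l (7.496) to Kmt2a (36.3), the methyltransferase that keeps Hox genes active. These stood above the median of CpG-rich genes in each SOX9 library, as the Polycomb genes did in uninjured M and F and 1 d.p.i. M.

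Homeobox genes outside the clusters gave a measure of other developmental regulators. The 15 forebrain and midbrain genes, known from the head, had medians of 1.38, 1.28, 0.908 and 0.664, near or below those of Hox groups 10-13. They ran from Nkx2-1 (0.140) to Dlx5 (2.66). The 18 genes of spinal cord domains had 1.80, 2.40, 1.78 and 1.88, from Isl1 (0.390) to Olig2 (13.9), a gene of motor neuron progenitors and the oligodendrocyte lineage. Unadjusted, limma gave p under 0.05 to 1 forebrain and midbrain gene and 2 cord domain genes, all lower, against 1.28% of all windows. Evx1 and Evx2, which lie next to HoxA and HoxD beyond the paralog 13 genes, had 0, 0.894, 1.14 and 0, and 0, 1.04, 0.602 and 0.392.

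Marker genes of cell types are given for the tissue around the Hox values. The 3 neuron genes had a median TSS window of 6.97, 10.8, 9.32 and 5.36, from Snap25 (6.53) to Syt1 (10.6), and the 5 astrocyte genes 3.34, 3.77, 3.94 and 4.63, from Aqp4 (1.45) to Gfap (7.25). The 4 microglia genes had 1.61, 1.70, 2.22 and 3.96, from P2ry12 (1.12) to Aif1 (6.80). The lists of 2 endothelial genes (2.75, 2.04, 0.564 and 2.21, Cldn5 at 2.33 above Pecam1 at 1.45) and 2 fibroblast genes (0.682, 1.93, 1.303 and 0.876, Col1a1 at 2.22 above Dcn at 0.180) were read as well, with 3 neutrophil genes (0.540, 0.136, 0 and 0.649, S100a9 at 0 to Ly6g at 1.84) and 3 genes of skeletal muscle (0.737, 2.73, 3.47 and 2.79, Myh4 at 0.173 to Ckm at 3.36), a tissue not in the cord. The lists given are not all those read, and no order of cell types is taken from them. None of these genes passed limma's threshold, and the part of cell composition in the Hox values was not tested.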

How the data were processed

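The authors mapped reads to mm10 with Bowtie2 2.5.4, removed duplicates with Picard 3.4.0 and called peaks with SEACR 1.3, per the submitters' notes. Peaks were not used here. The deposited signal is unscaled coverage of all 8 libraries, 0 of them left out.

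Genes and principal transcripts came from GENCODE M21. Coverage was divided by its library's mean over chromosomes 1-19, X and Y, and fragments were counted as rises of coverage. Changes were fitted over the 4 SOX9 libraries with limma 3.58.1 (R 4.3.3, trend) on log2(coverage + 0.5), with Benjamini-Hochberg adjustment. The gene fits held 21259 TSS windows and 21525 gene bodies of the 21829 protein-coding genes. The tile fit held all 1-kb tiles whose coverage summed to at least 3. The added 0.5 understates changes of low genes. On simulated data the fit missed most of the changes put in. The simulation held the depths of the libraries but not their differences in level, so it does not measure how much the fit misses here. Other work used Python 3.11.15.

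Named were the highest and lowest gene and highest tile of each cluster, paralog groups 9 and 10, genes whose conditions did not overlap, the 3 smallest p-values in each direction, and the extremes of each list. The result of 1 marker list is not reported here. The members and lists were chosen with earlier results of these data known. The division of clusters, the tile sets, the tile level of 3 and the promoters were chosen after the values were seen.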

Additional observations from a re-analysis of the deposited data

Results flagged for a closer look

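The change from uninjured to 1 d.p.i. went one way between the M libraries and the other way between the F libraries, each with 1 library a condition, and the difference was not tested. The median log2 change of the 38 Hox TSS windows was 0.34 in M and -0.48 in F. For the mean coverage of whole clusters it was 0.57 and -0.39 in HoxA, 0.37 and -0.41 in HoxB, 0.36 and -0.42 in HoxC, and 0.36 and -0.21 in HoxD. Of the 38 windows, 21 were higher in M and lower in F, and 4 were lower in M and higher in F. The TSS windows of all protein-coding genes showed the same split, with medians of 0.30 and -0.44. Over gene bodies the medians were 0.53 and -0.32 for the Hox genes, and 0.0332 and -0.0669 for all protein-coding genes.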

How the results depend on the processing

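In every setting run, 0 Hox TSS windows, gene bodies and cluster tiles were called by limma. Over all features, 2 TSS windows were called up with a mean coverage of at least 1, and 2 with fragments in place of coverage. Gene bodies called numbered 4 up and 4 down with all 8 libraries in the fit. Genome tiles, 19 up and 2 down as reported, were 7 and 0 with the trimmed mean scaling, 0 and 0 with all 8 libraries, and 50 and 7 with tiles whose coverage summed to at least 6. Without any 1 of the 4 SOX9 libraries (uninjured M, uninjured F, 1 d.p.i. M or 1 d.p.i. F) both tile counts were 0.

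M and F mark sex and not animals shared by the conditions. Deviations from the group means of same-sex libraries correlated at -0.0912 over 21259 windows. With a replicate block for sex, gene bodies called were 16 up and 11 down, tiles 6 up and 0 down, and TSS windows 0 and 0.

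Of 56 alternative values for the 16 group levels, leaving libraries out not counted, 53 moved by less than 1 SD. The 1 d.p.i. median of groups 4-9 was 7.29 with 500 bp to each side and 4.82 over gene bodies, and the uninjured median of groups 10-13 was 1.00 at the 5′ end of the gene record. Groups 10-13 were below groups 4-9 in all of them.

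Hoxc9's log2 change ranged from -2.63 to 0.44 with a library left out, turning without 1 d.p.i. F. Hoxb7's ranged from -0.0511 upwards, turning without uninjured M, and that of Hoxc4 was -0.21 without 1 d.p.i. M and 0.16 at the 5′ end of the gene record. Those of Hoxa4 and Hoxd10 ranged from 0.15 to 1.24 and from 0.26 to 1.0999. That of Hoxb1 ranged from -2.79 to -2.06, and was -3.88 with 0.1 and -1.20 with 2 added in place of 0.5. With all 8 libraries its unadjusted p was 0.375. The causes were not tested. With 2 libraries a group and 0 to 78 fragments in a Hox window, single genes are known poorly.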
